A study of Mus musculus with 12 samples.

Results

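The comparison described here sets bulk RNA sequencing of mouse tumor against spleen in control (WT) mice. It holds the 3 tumor WT and the 3 spleen WT libraries, 6 of the 12 libraries of the study, and they were chosen by their labels of tissue and genotype alone. Every library is labelled as natural killer (NK) cells, which the design text describes as sorted from spleen or tumor. The other 6 libraries come from tumor and spleen of conditional knockout (cKO) mice, in which 1 gene, not reported here, was deleted. The labels call the genotype of these 6 libraries WT, and the study's design text calls the mice controls. They do not give the kind of tumor, how it was made, the age or strain of the mice, the driver of the conditional allele, or the sort gate. Whether the 3 libraries of a tissue are from different mice is also not stated, so every p-value below measures only the spread between these samples, which may be technical.

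NK cells are innate lymphocytes that kill infected or transformed cells with perforin and granzymes. They are recognised by receptors such as NKp46 (Ncr1) and NK1.1 (Klrb1c) and are set up by the transcription factors Eomes and T-bet (Tbx21). In the spleen they circulate through the red pulp beside abundant B cells, while solid tumors also hold macrophages, other myeloid cells, fibroblasts and vessels, often at low oxygen. The gene groups below were therefore lists of NK genes, of markers of the other cells a sort could hold, and of pathways of the tumor milieu.

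Total counts ran from 10496256 to 13105059 in spleen and from 18518070 to 37118494 in tumor. Correlations over genes of log2 CPM (counts scaled by library size) lay between 0.968 and 0.976 within spleen, between 0.943 and 0.972 within tumor, and between 0.668 and 0.709 across tissues. Tumor replicate 2, the deepest library, stood apart. Of 10531 genes, 356 were over 2-fold above and 363 over 2-fold below both other tumor libraries there, against 33 to 40 genes for tumor replicates 1 and 3. Tumor replicate 3 held 1.25% of its counts in immunoglobulin genes, against 0.0641% and 0.0273% in tumor replicates 1 and 2. Results that lean on either library are given with the value of each library. Mitochondrially encoded genes took 1.8% to 3.02% of counts in tumor and 0.819% to 1.07% in spleen.

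Of 33100 genes in the count table, 15683 passed the filter on low counts and were tested with edgeR's quasi-likelihood test. At a Benjamini-Hochberg adjusted p under 0.05, here named "called", 9265 genes differed (59.1% of those tested). Of these, 5029 were higher in tumor (32.1%) and 4236 were lower (27%). The balance depended on the scaling: 4523 were higher and 4776 lower with library totals alone, and 4578 and 4952 with limma on log2(RPKM + 0.5). A stricter test against a 2-fold change called 4661 genes (29.7%), 2914 higher (18.6%) and 1747 lower (11.1%). The levels of the 2 groups did not overlap for 10777 genes (68.7%). With most genes differing, a list's count is to be read against these shares. Among the 11907 genes that reached the filter level in both tissues, 27.4% were called higher and 29.2% lower. The filter admitted 2220 genes through their tumor level alone and 1146 through their spleen level alone, so these were chosen partly by a difference, though not all of them were called. The median log2 change of all genes tested was 0.09, and it was -0.05 without composition scaling.

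**Figure D1:**
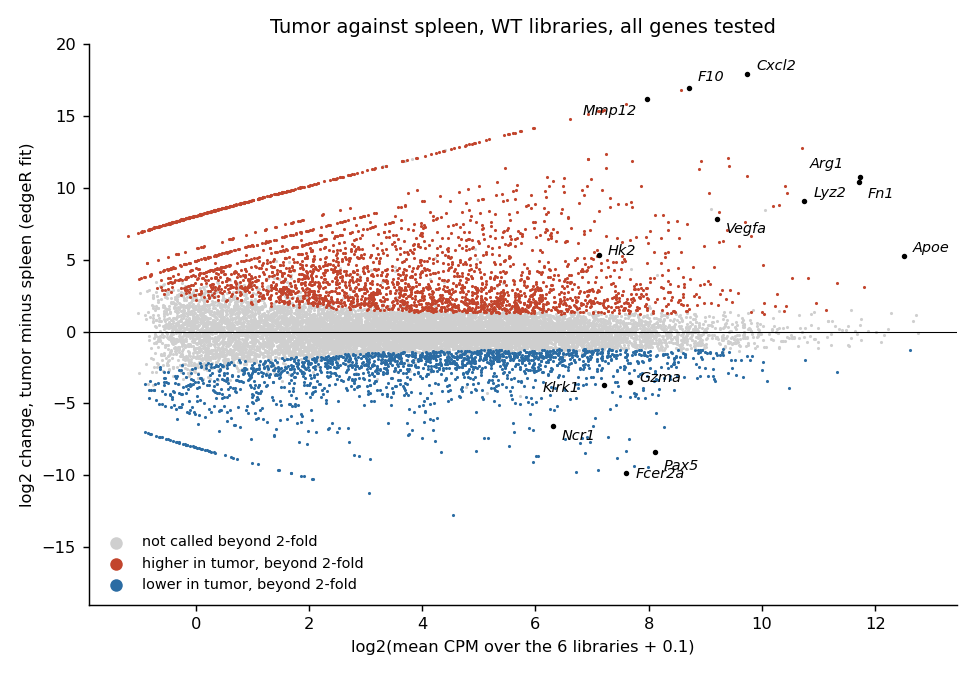
Log2 change, tumor minus spleen, of each of the 15683 genes tested (vertical axis) against log2 of the mean CPM over the 6 libraries plus 0.1 (horizontal axis); red and blue points are called beyond a 2-fold change. Arg1 and Fn1 lie above 10 at high levels and Fcer2a and Pax5 below -8, while genes with no read in 1 tissue form the straight upper and lower edges, where fitted values are no measure of size.

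NK markers were lower in the libraries labelled as tumor NK cells than in spleen. Ncr1 reached at most 1.79 CPM and Cd226 at most 2.4 CPM there. Ncr1 (chr7:4337724-4345164, mm10), the activating receptor NKp46, stood at 123, 149 and 198 CPM in the spleen libraries and at 1.79, 1.69 and 1.57 CPM in the tumor libraries. The groups lay far apart, and the log2 change was -6.53 ± 0.24 (SE, n = 3 per group, edgeR adjusted p = 1.05e-06), 92.7-fold lower in tumor. Klrb1c, which encodes NK1.1, fell from 113, 109 and 150 CPM to 7.78, 1.66 and 3.26 CPM (log2 change -4.91 ± 0.55, adjusted p = 2.58e-04). Its exons overlap Gm44511 on the same strand (mean 98 CPM in spleen and 8.5 CPM in tumor), so its levels are uncertain. Cd226, the activating receptor DNAM-1, fell from 28.7, 26.8 and 45.3 CPM to 2.13, 2.4 and 0.466 CPM.

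Eomes, a T-box factor of mature NK cells, was at 121, 93.8 and 112 CPM in spleen and at 41.7, 7.71 and 35.2 CPM in tumor. Its fall of -1.96 on the log2 scale was called (adjusted p = 0.02) but not beyond 2-fold, and tumor replicate 2 was the lowest library. The call was lost with no filter on low counts (adjusted p = 0.124). Tbx21 stayed at 13.7, 5.37 and 9.31 CPM and Klrk1, the activating receptor NKG2D, at 30.9, 11.1 and 22.8 CPM in tumor, with falls of 2.85 and 3.68 on the log2 scale. Of the 22 genes of the NK identity list, all tested, 18 were lower in tumor (14 beyond 2-fold) and 3 were higher, with a median log2 change of -3.06 against 0.09 over all genes. Among the 21 members at the filter level in both tissues, 17 were lower and 3 higher. The 3 that rose were Nfil3 (log2 change 4.26), Id2 (0.57) and Runx3 (0.66), transcription factors that other leukocytes also use. Summed over the list, spleen libraries held 2526 to 2826 CPM and tumor libraries 644 to 805 CPM, with no overlap. Single genes weighed heavily in these sums. Ikzf3 stood at 1119, 1050 and 1012 CPM in spleen and at 113, 74.7 and 99.4 CPM in tumor. B-cell genes, described below, fell as well, and which cells the Ikzf3 reads came from was not tested. Nfil3, which rose, gave 247, 335 and 236 CPM of the tumor sums. The sums are therefore no close measure of the change in the NK receptor genes. In bulk samples such as these, fewer cells of a type and less RNA per cell cannot be told apart.

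The Ly49 receptors, inhibitory and activating MHC class I receptors of mouse NK cells, moved with the identity genes. Of 9 genes, 8 were lower and none was higher, with a median log2 change of -2.89. Klra8 (Ly49H) stood at 72.6, 37.3 and 54.5 CPM in spleen and at 11.6, 1.85 and 5.12 CPM in tumor. Klra4 fell by 3.21, Klra7 by 2.06, Klra9 by 3.67 and Klra10 by 3.37 on the log2 scale. Klra1 was the member not called (spleen 11.3 to 15.8 CPM, tumor 15.4 to 17.4 CPM). These genes are near-identical copies of each other, and reads may have been shared among them, so the single values are uncertain.

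Cytotoxic genes were lower as a group but with exceptions. Of 17, 11 were lower and 3 higher, with a median log2 change of -1.69. Gzma, granzyme A, stood at 378, 295 and 452 CPM in spleen and at 42.7, 12.9 and 43 CPM in tumor (log2 change -3.52 ± 0.47, adjusted p = 6.15e-04). Prf1, the pore-forming perforin, was at 116, 106 and 143 CPM against 25.8, 7.93 and 18.3 CPM (log2 change -2.82). Gzmb, granzyme B, did not pass the test: spleen was at 84, 67.3 and 79.9 CPM and tumor at 101, 22.9 and 73.7 CPM, so the groups overlapped (log2 change -0.23 ± 0.47, adjusted p = 0.69). Gzmc was higher in tumor at 19.4, 3.4 and 10.4 CPM against 1.46, 0.291 and 0.55 CPM in spleen (log2 change 3.82). Gzmk was low throughout (spleen 1.17 to 1.75 CPM, tumor 0 to 0.163 CPM). Srgn, the granule proteoglycan serglycin that myeloid cells also make, rose by 2.41 on the log2 scale. The summed level of the list overlapped between tissues (spleen 1058 to 1387 CPM, tumor 812 to 1456 CPM), but Srgn made up most of it in tumor. Srgn alone stood at 884, 616 and 885 CPM there, against 140, 146.5 and 161 CPM in spleen.

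Genes of the interleukin-2 and interleukin-15 pathway, which sustains NK cells, moved in both directions. The receptor chain Il2rb went from 191, 176 and 235 CPM to 102, 27 and 81.6 CPM (log2 change -1.52, adjusted p = 0.02), a call lost with no filter on low counts (adjusted p = 0.133) and without spleen replicate 3 (0.0541). The common chain Il2rg fell by 1.07, whereas Il2ra, the chain induced on activation, rose by 0.97. Il15ra was not called (spleen 2.98 to 5.77 CPM, tumor 4.89 to 7.34 CPM). The feedback inhibitor Socs3 was at 15.9, 19.3 and 18.5 CPM in spleen and at 534, 436 and 486 CPM in tumor (log2 change 4.76 ± 0.16, adjusted p = 9.55e-07). Other inhibitors of the family also rose, Cish by 3.86, Socs1 by 2.48 and Socs2 by 2.40. Of the survival genes, Bcl2 fell by 1.32 and Mcl1 rose by 1.23. Over the list of 15, 6 were higher and 6 lower, with a median of 0.37.

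Receptors and adaptors that NK and myeloid cells share went the other way from the NK list. Of 9, 6 were higher and 3 lower, with a median log2 change of 1.78. Tyrobp, the adaptor DAP12, rose from 29.4, 26.1 and 35.8 CPM to 58.6, 86.3 and 63.4 CPM, and Fcer1g rose by 2.11 on the log2 scale. Fcgr3, the low-affinity IgG receptor CD16, was at 10.7, 7.71 and 10.1 CPM in spleen and at 207, 431 and 250 CPM in tumor (log2 change 4.96). Cd300a rose by 4.73, whereas Klrb1a, a lectin-like NK receptor, fell by 3.75.

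B-cell genes were abundant in the spleen libraries and near 0 in the tumor libraries. All 18 genes of the list were lower in tumor beyond 2-fold, with a median log2 change of -7.03. Only 8 reached the filter level in both tissues, and all 8 were lower, with a median of -4.80. Pax5, the factor that holds B-cell identity, stood at 624, 544 and 476 CPM in spleen and at 0.112, 3.49 and 0.698 CPM in tumor. Its log2 change was -8.39 ± 0.95 (adjusted p = 5.42e-04), and -10.38 without tumor replicate 2, the highest of the 3. Ms4a1, which encodes CD20, went from 354, 371 and 317 CPM to 0.112, 1.14 and 0.931 CPM (log2 change -8.77). Fcer2a, the low-affinity IgE receptor CD23, fell by 9.83, Cr2, complement receptor 2, by 9.75, and Fcmr, the IgM receptor, by 9.45 on the log2 scale. The factor Spib fell by 7.98.

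Per length, B-cell markers in the libraries labelled as spleen NK cells stood in the same range as the NK markers. Mean RPKM, the deposited level per kilobase of gene and library size, in spleen was 162 for Cd79a, a signalling chain of the B-cell receptor, 65.1 for Pax5 and 58.9 for Ms4a1. It was 107 for Ncr1, 43.9 for Klrb1c, 40.3 for Klrk1 and 448 for Gzma. In tumor the mean of Ncr1 was 1.04 RPKM. B-cell markers thus fell together with the NK markers from spleen to tumor, and their part in the changes of other genes was not tested.

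Immunoglobulin constant genes did not move as a block. Of 12, 4 were lower, 1 was higher and 7 were not called. Ighd, made by naive B cells, fell from 467, 410 and 406 CPM to 0.784, 0.872 and 0.175 CPM (log2 change -9.34 ± 0.40), and the lambda genes Iglc2 and Iglc3 fell by 8.47 and 7.68. Ighm stood at 1626, 1802 and 1738 CPM in spleen and at 209, 126 and 2046 CPM in tumor, and Igkc at 466, 429 and 435 CPM against 59.1, 28.3 and 1037 CPM. Tumor replicate 3 alone brought both groups to overlap: neither gene was called (adjusted p = 0.41 and 0.89), and without it their log2 changes were -3.35 and -3.33, both called. The variable segment Ighv4-1 was at 93.7, 7.22 and 6278 CPM in tumor and at 4.86 to 7.28 CPM in spleen. Immunoglobulin segments resemble each other, so reads may have been shared among them.

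**Figure D2:**
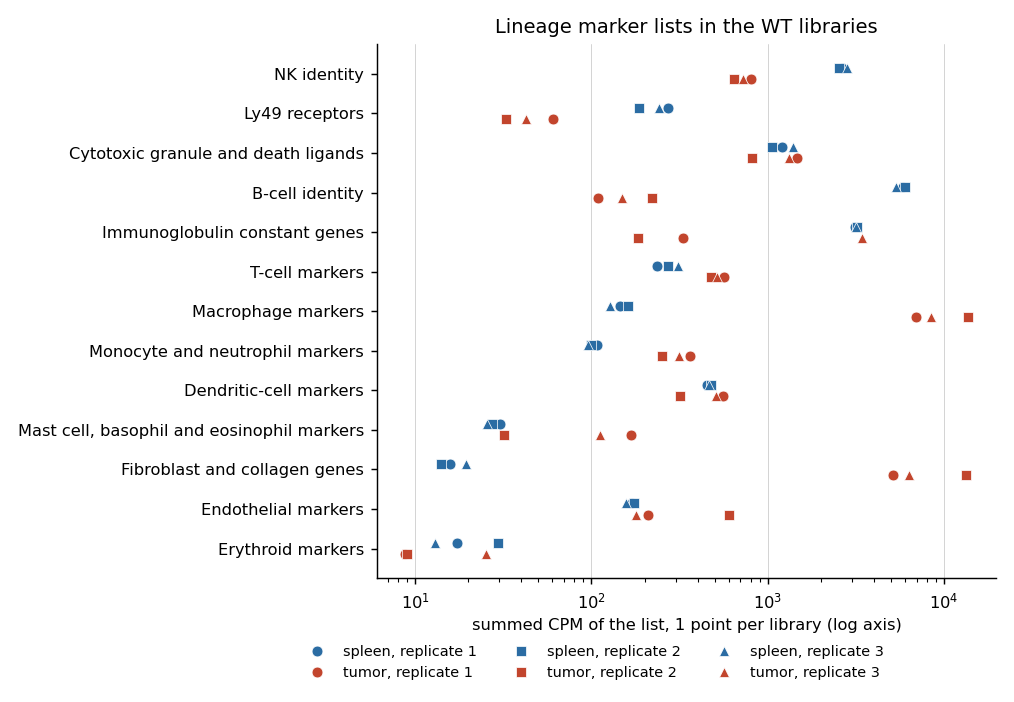
Summed CPM of 13 marker lists (horizontal log axis) in each of the 6 WT libraries; blue marks spleen, red marks tumor, and the symbol gives the replicate. NK identity, Ly49 and B-cell lists lie lower in all 3 tumor libraries, macrophage and fibroblast lists higher, and tumor replicate 3 is level with spleen in the immunoglobulin list.

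T-cell genes were present in both tissues, and more were higher than lower in tumor. Of 18 tested of 19 listed, 9 were higher and 1 was lower, with a median log2 change of 1.10. Cd3e, a signalling chain of the T-cell receptor complex, stood at 13.6, 13 and 16.1 CPM in spleen and at 33.2, 25 and 22.3 CPM in tumor. Cd3d rose by 1.16 and Cd3g by 2.05. Trac, the alpha constant gene, rose from 4.53, 4.22 and 3.94 CPM to 34.2, 38.7 and 31.9 CPM, and Cd5 by 2.78 on the log2 scale. Trbc1, a beta constant gene, fell from 22.1, 29 and 29.4 CPM to 14.1, 3.43 and 7.51 CPM, while its near copy Trbc2 was not called. Tcf7, a factor that NK cells also use, was not called (spleen 80.2 to 112 CPM, tumor 82.7 to 108 CPM). Ctla4, an inhibitory receptor of activated and regulatory T cells, rose from 0.292, 0.873 and 0.183 CPM to 44.2, 8.58 and 36.2 CPM (log2 change 5.97).

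Macrophage genes were high in all 3 tumor libraries. Of 20 listed, 19 were tested, 17 were higher and 1, Cd5l, was lower, with a median log2 change of 6.50. Of the 14 at the filter level in both tissues, 12 were higher and 1 was lower, with a median of 6.19. Lyz2, the myeloid lysozyme, stood at 7.31, 6.69 and 4.77 CPM in spleen and at 1922, 6402 and 1975 CPM in tumor (log2 change 9.09 ± 0.68, adjusted p = 3.63e-05). It was 546-fold higher, with tumor replicate 2 the highest library, and the log2 change without that library was 8.28. Csf1r, the receptor on which macrophages depend, went from 12.5, 15.6 and 5.59 CPM to 422, 649 and 534 CPM (log2 change 5.56).

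Adgre1, which encodes F4/80, rose by 4.17, the scavenger receptor gene Msr1 by 10.68 and the lipopolysaccharide coreceptor gene Cd14 by 10.12 on the log2 scale. The complement starter C1qa was at 5.77, 5.24 and 4.4 CPM in spleen and at 276, 795 and 404 CPM in tumor, and C1qb and C1qc rose by 6.23 and 6.16. The 3 tumor libraries all lay above the 3 spleen libraries for each of these genes. The summed macrophage list reached 6948 to 13720 CPM in tumor, against 128 to 161 CPM in spleen. It was highest in tumor replicate 2, where the summed NK list was lowest. Its part in the other tumor-high genes was not tested.

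Genes of alternative activation, the macrophage state induced by interleukin-4, were all higher. All 12 rose, 11 beyond 2-fold, with a median log2 change of 10.01 (9.44 when genes without spleen reads are set at their lower bound). Only 4 reached the filter level in both tissues, and their median was 5.89. Arg1 (chr10:24915208-24927470), the arginase that breaks down arginine, stood at 3.65, 3.49 and 4.58 CPM in spleen and at 7412, 5019 and 8063 CPM in tumor. Its log2 change was 10.77 ± 0.31 (adjusted p = 6.4e-07), and the mean RPKM in tumor was 4387, among the highest of all genes.

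The chitinase-like gene Chil3 had no read in spleen and was at 171, 1759 and 347 CPM in tumor, at least 13105-fold higher when spleen is set at 3 reads over its 3 libraries. Retnla, a secreted protein of the same state, was at 94.9, 399 and 88.6 CPM and at least 3180-fold higher, and the lectin gene Mgl2 at 57.8, 230 and 90.4 CPM and at least 1965-fold higher. All 3 were highest in tumor replicate 2. Pdcd1lg2, which encodes PD-L2, went from 2.48, 3.27 and 2.84 CPM to 43.2, 114 and 66.8 CPM.

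Of 15 complement genes, 12 were higher and 1 lower, with a median log2 change of 6.58. Only 6 reached the filter level in both tissues, 5 of them higher and 1 lower, with a median of 6.19. C3, the central component, stood at 5.26, 5.97 and 5.5 CPM in spleen and at 1363, 4496 and 1718 CPM in tumor (log2 change 8.82). The C3a receptor gene C3ar1 rose by 9.05. The member that fell was Cd55, an inhibitor of complement on the cell surface, from 632, 533 and 475 CPM to 14.2, 8.61 and 10.1 CPM.

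Markers of other myeloid cells were present at lower levels. Of 16 monocyte and neutrophil genes, 11 were tested and 8 were higher. Only 4 reached the filter level in both tissues, 2 of them higher, with a median log2 change of 0.72. S100a8, the neutrophil calcium-binding protein, was at 6.61, 0.736 and 4.42 CPM in tumor, and S100a9 at 75.5, 9.21 and 48.1 CPM, each lowest in tumor replicate 2. The call of S100a9 was lost with no filter (adjusted p = 0.0752). Spleen was at 0.292 to 0.437 CPM for S100a8 and at 0 to 3.13 CPM for S100a9. Csf3r, the granulocyte colony receptor, rose by 5.11 and Retnlg by 6.73. Ly6c2 was not called (8.15 to 10.9 CPM against 7.25 to 18.6 CPM) except without tumor replicate 2 (adjusted p = 0.0239), and the neutrophil marker Ly6g had no read in any of the 6 libraries.

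Of 11 dendritic-cell genes tested, 6 were higher and 1 was lower. Only 5 reached the filter level in both tissues, and of these 1 was higher and 1 lower, with a median log2 change of -0.17. The summed list overlapped between tissues (spleen 453 to 475 CPM, tumor 318 to 560 CPM). Zbtb46 was not called (adjusted p = 0.47). Flt3 was just over the threshold (adjusted p = 0.052) and was called higher under 6 of the 13 alternatives, among them DESeq2 (adjusted p = 0.0158) and without tumor replicate 2 (0.0161). Xcr1 was called higher at 12.6, 1.44 and 11.4 CPM against 0.582 to 1.65 CPM, but the groups overlapped through tumor replicate 2. That call was lost under 5 alternatives (adjusted p from 0.0519 to 0.0617), among them without spleen replicates 1 or 2. The chemokine genes Ccl22 and Ccl17 were at 2.91 to 3.58 CPM and 5.54 to 10.8 CPM in tumor, and Cd209a rose by 3.68.

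Of 7 mast cell, basophil and eosinophil genes tested, 6 were higher and 1 was lower, and none reached the filter level in both tissues. Cpa3 and Mcpt8 stayed under 3 CPM in every library, Siglecf reached 2.78 to 8.51 CPM in tumor, and Ms4a2 was under the filter. Hdc, which makes histamine and is not confined to mast cells, was at 110, 16.6 and 72.8 CPM in tumor and under 1 CPM in spleen.

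Stromal genes were higher in tumor and highest in 1 tumor library. Of 19 fibroblast and collagen genes, 18 were tested and 17 were higher, with a median log2 change of 7.36, but the median was 4.90 without tumor replicate 2. Only 4 reached the filter level in both tissues, all 4 higher, with a median of 6.38. Col1a1, a chain of collagen I, was at 30.5, 335 and 11.9 CPM in tumor and 0.291 to 1.1 CPM in spleen (log2 change 7.62 ± 1.8, adjusted p = 0.014, and 5.06 without tumor replicate 2). Col1a2 was at 27, 388 and 18 CPM and Col3a1 at 93.8, 817 and 42.6 CPM, with log2 changes of 9.37 and 8.64, and of 6.69 and 6.44 without that library. The pericyte receptor gene Pdgfrb had no read in spleen and was at 2.69, 21.4 and 4.07 CPM in tumor, at least 161-fold higher.

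Fibronectin was the exception in evenness: Fn1, which macrophages also make, stood at 3.95, 5.09 and 5.87 CPM in spleen and at 4647, 9324 and 6152 CPM in tumor (log2 change 10.40 ± 0.39, adjusted p = 1.08e-06). Of 13 endothelial genes, 9 were tested and 6 were higher. Only Pecam1 reached the filter level in both tissues, so none of the 6 higher genes did. Cdh5, the endothelial cadherin, was at 19, 63.5 and 1.75 CPM in tumor, Flt1, a receptor for VEGF, at 26.4, 77.7 and 30.6 CPM, and Kdr at 10.3, 26.8 and 6.75 CPM. Egfl7 had no read in spleen and 1.63 to 8.2 CPM in tumor. Pecam1, also made by leukocytes, was not called (spleen 154 to 172 CPM, tumor 103 to 156 CPM), but it was called lower under 5 alternatives, among them library totals (adjusted p = 0.037) and without tumor replicate 2 (4.8e-04).

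Epithelial and melanocyte genes were mostly under the filter, Krt8 and Krt18 among them. Epcam was not called (spleen 1.83 to 5.38 CPM, tumor 1.68 to 8.03 CPM). Cdh1 rose from under 1 CPM to 43.3, 51.7 and 76.9 CPM, and Mitf, which macrophages also use, from 0.825 to 1.31 CPM to 29.1 to 65 CPM. The erythroid genes Hba-a1 (adjusted p = 0.61), Hba-a2 (adjusted p = 0.32) and Hbb-bs (adjusted p = 0.44) were not called and did not exceed 16.9 CPM in any library. Without tumor replicate 3, Hba-a2 and Hbb-bs were called lower (adjusted p = 0.0319 and 0.0374).

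**Figure D3:**
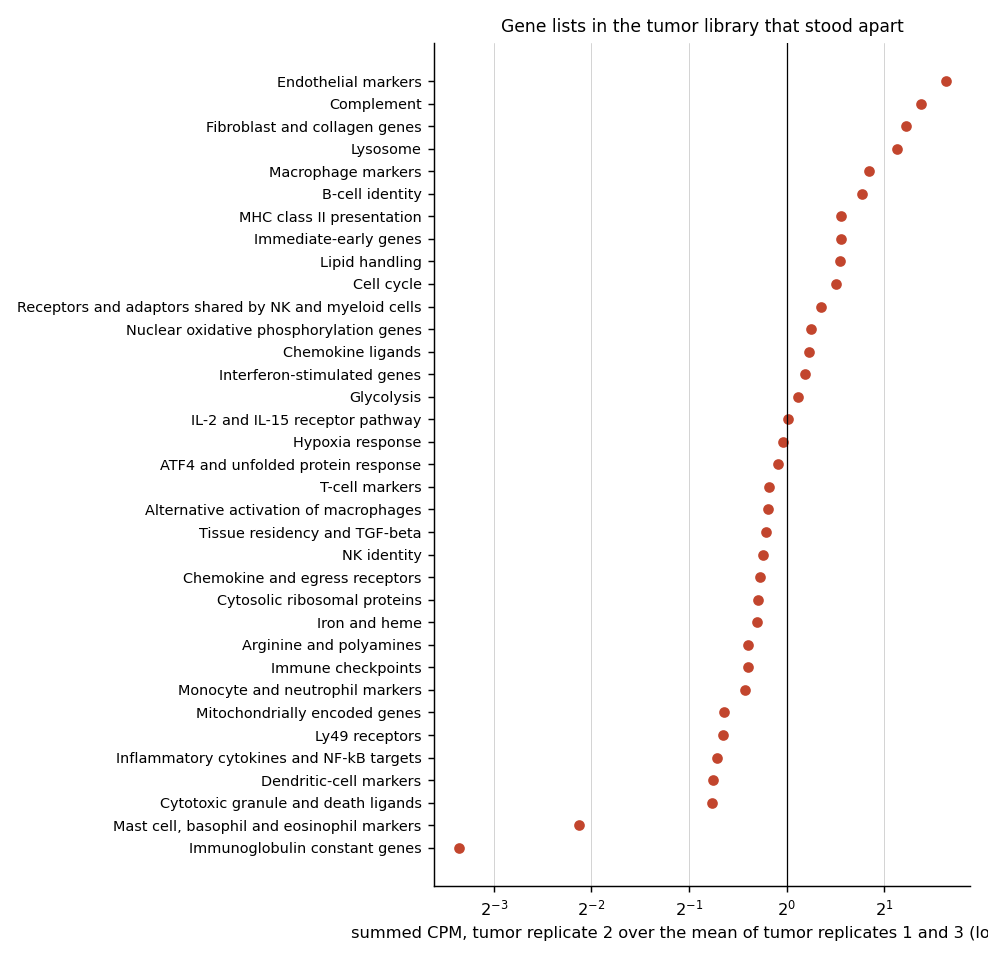
Summed CPM of 35 gene lists in tumor replicate 2 divided by the mean of tumor replicates 1 and 3 (horizontal log2 axis). Endothelial (3.1), complement (2.59), fibroblast (2.32) and lysosome (2.18) lists were highest in this library, cytotoxic (0.586) and mast cell (0.228) lists were lower, and hypoxia (0.977) and glycolysis (1.08) lists lay near 1. Fn1 gave 4647, 9324 and 6152 of the fibroblast sums of 5109, 13260 and 6317 CPM in tumor replicates 1 to 3. Its ratio thus understates how far collagen genes such as Col1a1 (30.5, 335 and 11.9 CPM) stood apart. Pecam1 gave 103, 156 and 115 of the endothelial 209, 599 and 178 CPM.

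Genes of lipid handling, active in lipid-laden macrophages, were higher: 14 of 15 were tested and all 14 were called higher, with a median log2 change of 4.40. Of these, 11 reached the filter level in both tissues, with a median of 3.16. Apoe, the lipid carrier apolipoprotein E, stood at 301, 311 and 271 CPM in spleen and at 7598, 14950 and 11500 CPM in tumor (log2 change 5.27 ± 0.28, adjusted p = 3.22e-06). Its mean RPKM in tumor was 5084. Trem2, a lipid receptor, had no read in spleen and was at 76.3, 205 and 91.5 CPM in tumor, at least 1861-fold higher. Fabp5 went from 4.82, 4.07 and 7.33 CPM to 2017, 2374 and 2638 CPM, and Fabp4 from no read to 25.4, 130 and 26.1 CPM. The lipase gene Lpl rose by 6.52.

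Lysosomal genes, which degrade material taken up by phagocytosis, rose broadly. Of 20, 17 were higher and 1 lower, with a median log2 change of 2.88, and 18 reached the filter level in both tissues. Ctsl, cathepsin L, was at 5.55, 1.6 and 3.12 CPM in spleen and at 1656, 4801 and 1869 CPM in tumor (log2 change 9.66). Ctsb went from 74.2, 90.5 and 71.5 CPM to 1277, 3196 and 1492 CPM, and Ctsd from 177, 192 and 255 CPM to 865, 2298 and 787 CPM. Ctsk rose by 10.12 and the proton-pump subunit gene Atp6v0d2 by 7.97. Tumor replicate 2 was the highest library for each of these 5 genes. Gla, a lysosomal galactosidase, rose evenly from 1.02, 0.873 and 2.2 CPM to 74.5, 75.6 and 91.1 CPM (log2 change 5.91). Tfeb, the factor that drives lysosomal genes, fell by 1.86 on the log2 scale from 76, 70.6 and 85.2 CPM to 22.3, 17.1 and 24.3 CPM.

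TFEB and its relatives bind CACGTG-type sites near the start of lysosomal genes, so the promoters were searched for that motif. The windows are RefSeq's, 250 bases before to 50 after a start site (GRCm38.p6), and 15 of the 20 genes were matched. Searched on both strands, CACGTG stood in 8 of their 19 windows (42.1%) and in 7.2% of all 32851 windows. A match is a description of letters, not of binding, and base composition was not matched. The 2 genes of largest rise with a match are shown, with the motif in capitals. The Ctsl window lies wholly upstream of the Ctsl row of the count table, which ends at position 64370306. Its motif is therefore not at the start of the gene as counted. The Ctsl window is chr13:64370471-64370770 and the Gla window chrX:134600956-134601255, both on the minus strand, 5′ to 3′.
Ctsl: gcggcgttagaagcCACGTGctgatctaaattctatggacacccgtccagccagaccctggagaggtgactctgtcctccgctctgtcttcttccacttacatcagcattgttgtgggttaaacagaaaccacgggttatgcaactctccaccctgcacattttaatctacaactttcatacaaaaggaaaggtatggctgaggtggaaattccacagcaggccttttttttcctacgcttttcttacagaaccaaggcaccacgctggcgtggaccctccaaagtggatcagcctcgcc
Gla: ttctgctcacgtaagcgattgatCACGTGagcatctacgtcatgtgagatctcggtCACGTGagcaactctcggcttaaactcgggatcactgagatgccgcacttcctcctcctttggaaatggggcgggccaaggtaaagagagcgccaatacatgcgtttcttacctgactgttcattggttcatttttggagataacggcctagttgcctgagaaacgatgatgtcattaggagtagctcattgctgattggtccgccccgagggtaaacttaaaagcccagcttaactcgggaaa

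Iron and heme genes rose in part. Of 10, 7 were higher and none lower. Hmox1, heme oxygenase, stood at 28.4, 38.4 and 30.8 CPM in spleen and at 682, 663 and 764 CPM in tumor (log2 change 4.43 ± 0.17). The ferritin light chain Ftl1 rose from 39, 34.7 and 37.5 CPM to 618, 491 and 587 CPM, and the phagosomal metal transporter Slc11a1 by 6.74. The red pulp macrophage factor Spic and the iron exporter Slc40a1 were not called (adjusted p = 0.67 and 0.12), though Slc40a1 was called lower without spleen replicate 3 (adjusted p = 8.66e-03).

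Arginine and polyamine genes rose, and Arg1 is a member of this list too. Of 13, 11 were higher and none was lower, with a median log2 change of 3.17. Of the 10 at the filter level in both tissues, 8 were higher, with a median of 2.3. Slc7a2, an arginine transporter, had no read in spleen and was at 147, 847 and 169 CPM in tumor, at least 6522-fold higher. Nos2, which turns arginine into nitric oxide, had no read in spleen and was at 28.5, 247 and 17.4 CPM, called at adjusted p = 0.0301 but not beyond 2-fold. Without tumor replicate 1 it was not called (adjusted p = 0.104). Arg2 went from at most 0.146 CPM to 38.3, 24.7 and 31.8 CPM, though its exons overlap Vti1b on the other strand, and strand use in counting is not given in the sources used here.

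Hypoxia genes, targets of the HIF factors that act when oxygen is low, rose almost throughout and evenly. Of 24, 22 were higher and none lower, with a median log2 change of 2.50. Of the 20 at the filter level in both tissues, 18 were higher. Vegfa (chr17:46016993-46032369, mm10), the vascular growth factor, stood at 5.33, 4.66 and 5.41 CPM in spleen and at 1201, 1209 and 1131 CPM in tumor. Its log2 change was 7.85 ± 0.17 (230-fold, adjusted p = 3.39e-07), and the 3 tumor libraries differed little. Egln3, a prolyl hydroxylase that marks HIF for decay, went from 0.731, 0.873 and 1.1 CPM to 101, 111 and 100.3 CPM (log2 change 6.86 ± 0.20).

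Ak4, an adenylate kinase, had no read in spleen and was at 13.7, 29 and 10.6 CPM in tumor, at least 266-fold higher. The glucose transporter Slc2a1 rose from 15, 11.9 and 16.5 CPM to 178, 153 and 168 CPM, and Pgk1 from 25.9, 27.5 and 35.3 CPM to 292, 321 and 293 CPM. Kdm3a (log2 change 0.36, adjusted p = 0.051) and Narf (-0.57, adjusted p = 0.064) were not called.

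HIF binds the core ACGTG or GCGTG. That core, on either strand and counted wherever it overlaps another motif, stood in 27 of 32 RefSeq windows of 21 matched hypoxia genes (84.4%), and in 43.8% of all 32851 windows. The core is short, and it was frequent in all windows. Shown are Ak4 and Egln3, the genes of largest rise whose window nearest the 5′ end in the count table holds it. The window of Vegfa at the 5′ end of its row held none, though one at an internal start did. Ak4 is read from chr4:101419039-101419338 on the plus strand and Egln3 from chr12:54203825-54204124 on the minus strand, with the core, or its reverse complement, in capitals.
Ak4: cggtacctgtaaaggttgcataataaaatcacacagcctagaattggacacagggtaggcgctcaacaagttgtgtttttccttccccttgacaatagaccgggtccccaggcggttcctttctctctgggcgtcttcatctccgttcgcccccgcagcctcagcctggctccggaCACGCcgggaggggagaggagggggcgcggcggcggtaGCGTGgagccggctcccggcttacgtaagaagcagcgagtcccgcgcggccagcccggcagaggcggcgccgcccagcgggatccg
Egln3: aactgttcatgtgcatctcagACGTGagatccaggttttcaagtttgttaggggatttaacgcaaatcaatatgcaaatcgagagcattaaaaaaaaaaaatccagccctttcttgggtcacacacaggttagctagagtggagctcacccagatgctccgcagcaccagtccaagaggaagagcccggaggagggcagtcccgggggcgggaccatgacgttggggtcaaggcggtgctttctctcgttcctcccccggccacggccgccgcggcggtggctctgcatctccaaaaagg

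Glycolysis genes rose without exception: all 18 were higher, 15 beyond 2-fold, and all 18 reached the filter level in both tissues. The median log2 change was 2.53. Hk2, an inducible hexokinase, was at 8.26, 6.4 and 5.59 CPM in spleen and at 198, 385 and 228 CPM in tumor (log2 change 5.32 ± 0.32, adjusted p = 6.35e-06). Slc16a3, the lactate exporter MCT4, rose from 0.658, 1.09 and 1.38 CPM to 164, 91 and 176 CPM (log2 change 7.12). Gpi1 rose by 1.85. Hk1, the constitutive hexokinase, changed least, at 125, 129 and 145 CPM against 183, 169 and 161 CPM (log2 change 0.37, adjusted p = 0.029). That call was lost under 8 of the 13 alternatives, among them scaling by library totals (adjusted p = 0.13).

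**Figure D4:**
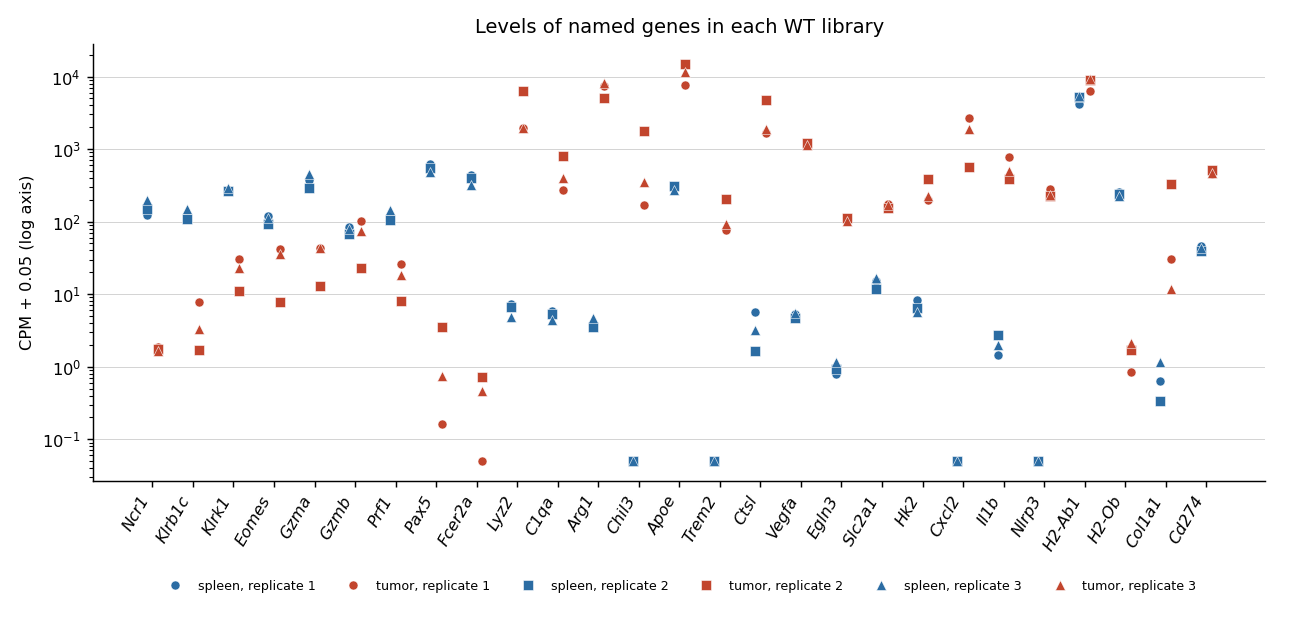
CPM plus 0.05 on a log axis for 27 named genes in each WT library; blue marks spleen, red marks tumor, and the symbol gives the replicate. Gzmb overlaps between tissues, Vegfa and Egln3 cluster tightly within each tissue, and Col1a1 and Chil3 are highest in tumor replicate 2; points at the bottom had no read.

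Chemokine ligands, which recruit leukocytes, rose steeply. Of 24, 22 were tested, 19 were higher and 1 was lower, with a median log2 change of 9.26 (8.47 with lower bounds). Only 6 reached the filter level in both tissues. Of these, 3 were higher and 1 was lower, with a median of 1.32. Cxcl2 (chr5:90903871-90905938), which attracts neutrophils, had no read in spleen and was at 2664, 557 and 1902 CPM in tumor, at least 17938-fold higher. Ccl2, a monocyte attractant, had no read in spleen and 96.4, 57 and 63.8 CPM in tumor, and Ccl8 100.3, 577 and 157 CPM. Ccl3 was called higher (log2 change 1.75, adjusted p = 9.2e-03), and Ccl4 was not (spleen 10.6 to 11 CPM, tumor 31.8, 6.24 and 22.3 CPM), except without tumor replicate 2 (log2 change 1.34, adjusted p = 1.59e-04). Ccl5, made by NK and T cells, fell from 42.5, 37.5 and 51 CPM to 7.9, 9.37 and 6.81 CPM.

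Chemokine and egress receptors mostly fell. Of 17, 12 were lower and 4 higher, with a median log2 change of -1.58. S1pr1, which guides lymphocytes out of tissue, went from 66.1, 76.5 and 62.5 CPM to 6.1, 9.94 and 3.2 CPM (log2 change -3.39), and S1pr4 fell by 2.97. S1pr5, the form typical of NK cells, was not called (spleen 80.3 to 122 CPM, tumor 78.4 to 99.7 CPM, adjusted p = 0.39). The B-cell follicle receptor Cxcr5 fell from 93.1, 113 and 86 CPM to 0.672, 1.09 and 0.349 CPM, and Ccr6 by 6.05. Ccr1, a myeloid receptor, rose from at most 0.728 CPM to 111, 61.8 and 103 CPM.

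Inflammatory genes were higher in 15 of 16, with a median log2 change of 4.64. Of the 9 at the filter level in both tissues, 8 were higher, with a median of 3.01. Il1b, the inflammasome-processed cytokine, stood at 1.39, 2.69 and 1.93 CPM in spleen and at 778, 382 and 498 CPM in tumor (log2 change 8.10 ± 0.40, adjusted p = 3.1e-06). Its sensor Nlrp3 had no read in spleen and was at 278, 226 and 231 CPM, at least 3066-fold higher. Il6 was at 15, 12.1 and 11.8 CPM, at least 163-fold higher, and the antagonist Il1rn rose by 11.34. Tnf went from 6.58, 6.4 and 9.07 CPM to 94.3, 39.8 and 89 CPM, and Il1a rose by 6.99.

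**Figure D5:**
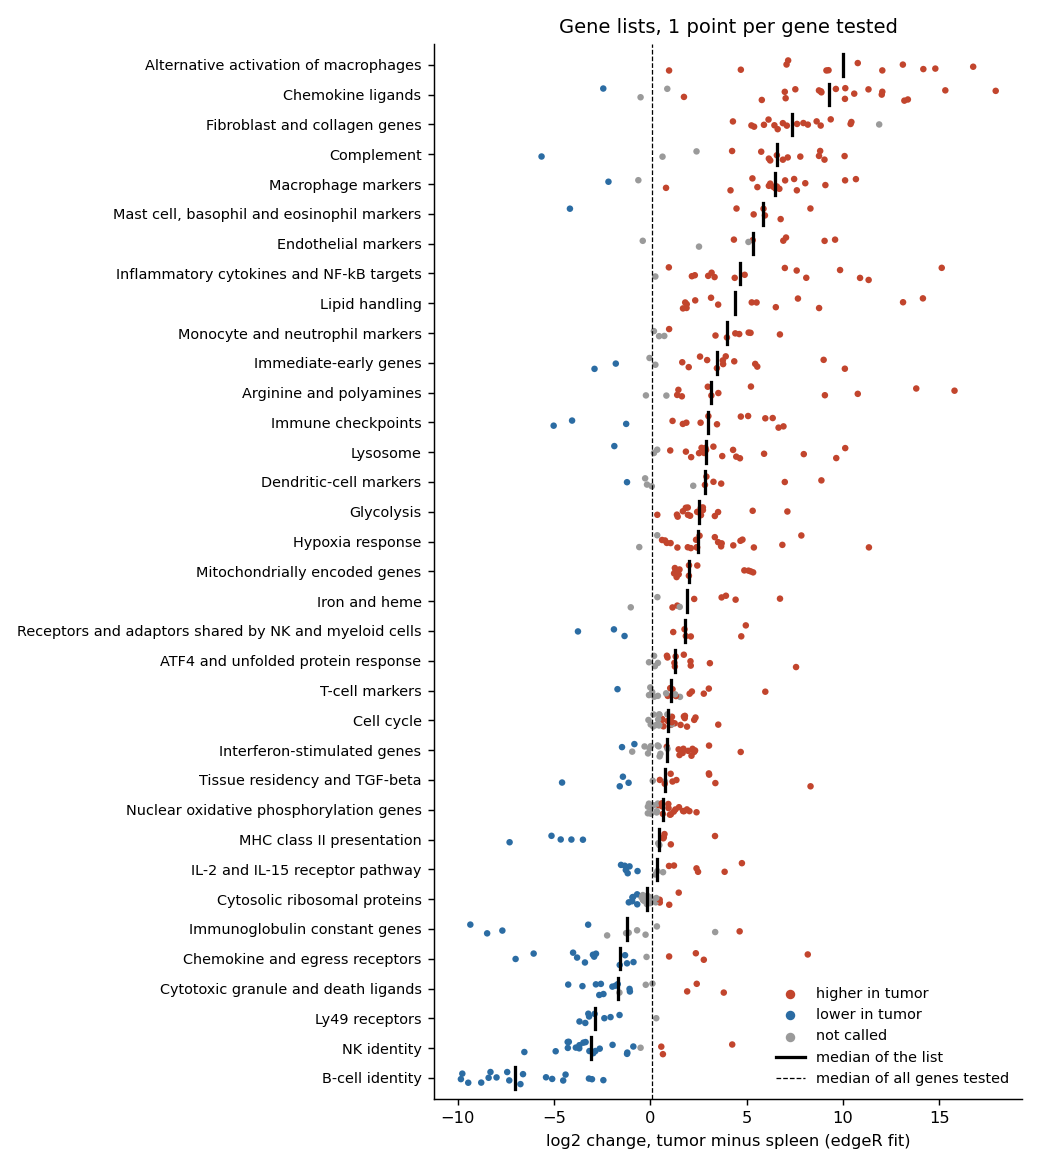
Log2 change, tumor minus spleen, of each tested gene in 35 lists (horizontal axis), ordered by the list's median (black bar); red is called higher, blue called lower, grey not called, and the dashed line is the median of all genes, 0.09. All glycolysis and alternative activation points are red and all B-cell points blue, whereas MHC class II genes fall on both sides.

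MHC class II genes, which present antigen to CD4+ T cells, split in 2. All 12 were tested and reached the filter level in both tissues, 5 were higher and 5 lower. The classical chains were slightly higher: H2-Ab1 stood at 4154, 5208 and 5320 CPM in spleen and at 6323, 8974 and 9237 CPM in tumor (log2 change 0.74, adjusted p = 0.01), and H2-Aa and H2-Eb1 rose by 0.68 and 0.71. The calls of H2-Ab1 and H2-Eb1 were lost without spleen replicate 1 (adjusted p = 0.0546 and 0.0622). H2-Ob, a chain of the B-cell peptide editor DO, fell from 256, 239 and 225 CPM to 0.784, 1.64 and 2.1 CPM (log2 change -7.30 ± 0.31), its partner H2-Oa by 5.13 and H2-DMb2 by 4.65. Ciita, the master regulator of the class, fell from 284, 354 and 320 CPM to 18.3, 47.6 and 18.6 CPM.

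Of 15 immune checkpoint genes, 12 were higher and 3 lower, with a median log2 change of 3.02. Of the 10 at the filter level in both tissues, 8 were higher and 2 lower, with a median of 2.25. Pdcd1, which encodes PD-1, was at 0.292, 0 and 1.83 CPM in spleen and at 56.8, 50.7 and 54.1 CPM in tumor (log2 change 6.36). Its ligand gene Cd274 rose from 46.4, 39.2 and 43.5 CPM to 447, 513 and 468 CPM. Havcr2, or TIM-3, rose by 6.92, and Lilrb4a, an inhibitory myeloid receptor, by 6.66. The 3 that fell were Cd96, Btla and Klrg1, receptors of lymphocytes.

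Genes tied to tissue residency and TGF-beta were mixed, with 9 of 15 higher and 4 lower. Itga1 (CD49a) rose by 1.16, Itgae (CD103) was not called, and Cd69 was called at 19.6 to 28.7 CPM against 29.6 to 37 CPM, a call lost without spleen replicates 2 or 3 or tumor replicates 1 or 3 (adjusted p 0.11 to 0.155). Tgfbi, a matrix protein induced by TGF-beta, went from 2.78, 4.66 and 3.85 CPM to 999, 1247 and 1370 CPM. Zfp683 (Hobit), a residency factor of lymphocytes, fell by 4.58, and the ectonucleotidase Nt5e rose by 3.38.

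Interferon-stimulated genes were less uniform. Of 24 tested, 12 were higher and 2 lower, with a median of 0.88. Isg15 rose from 7.97, 7.86 and 8.98 CPM to 91.8, 49.6 and 64.6 CPM, Rsad2 by 4.70 and Oas1a by 2.33, while Ifit2 (log2 change 0.03) was not called. Ifit1 rose by 1.72.

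Immediate-early genes, which respond to stimulation and to cell isolation, were higher in 13 of 17 and lower in 2. Atf3 went from 0.365, 0.655 and 1.47 CPM to 444, 337 and 453 CPM, Ier3 rose by 10.10, Nr4a2 by 5.56, Fosb by 3.78 and Fos by 1.66. Jun was not called (adjusted p = 0.17). Egr3 and Klf2, the latter a quiescence factor of lymphocytes, fell by 2.89 and 1.79.

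Among genes of the ATF4 and unfolded protein responses, 10 of 14 tested were higher and none was lower. Atf4 rose from 147, 136 and 137 CPM to 706, 365 and 716 CPM, the asparagine synthetase gene Asns by 7.57, Trib3 by 3.10, Dnajb9 by 2.10 and Ddit3 by 0.87 on the log2 scale, the last not called without spleen replicate 1 (adjusted p = 0.0549).

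Of 30 cell cycle genes, 18 were higher and none lower, but only 4 beyond 2-fold. Mki67 stood at 398, 335 and 333 CPM in spleen and at 536, 691 and 431 CPM in tumor (log2 change 0.64, adjusted p = 0.018), a call lost when scaled by library totals (adjusted p = 0.0569) and without spleen replicates 2 or 3. Top2a rose by 1.13 and Cdk1 from 2.05, 1.75 and 1.1 CPM to 21.2, 23.8 and 12.2 CPM. Mcm2 was not called (spleen 101 to 106 CPM, tumor 78.3 to 118 CPM).

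Ribosomal protein genes stayed near the median of all genes: 4 of 26 were higher, 7 lower and none beyond 2-fold, with a median log2 change of -0.16. Rpl38 rose by 1.48, Rps2 by 0.99, Rpl4 fell by 0.68, Rpl5 by 0.93 and Rplp1 by 1.11, and Rpl3 was not called. Nuclear genes of oxidative phosphorylation were higher in 16 of 25, led by Cox5b (2.40), Cox6c (2.03) and Ndufa1 (1.91), while Ndufb5 was not called. All 13 mitochondrially encoded protein genes were higher, mt-Nd1 from 870, 785 and 714 CPM to 4029, 2553 and 2989 CPM (log2 change 2.01). The steep changes of mt-Atp6 (5.34), mt-Co3 (5.22) and mt-Co2 (5.10) rest on levels under 3 CPM in spleen, in genes that overlap a neighbour or have near copies in the nuclear genome, and are uncertain.

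Outside the lists, the largest rises among genes whose log2 CPM averaged 2 or more included F10 and F7, coagulation factors. F10 had no read in spleen and was at 936, 577 and 997 CPM in tumor, and F7 was at 196, 450 and 240 CPM, at least 9804-fold and 4300-fold higher. Mmp12, the macrophage elastase, was at 381, 773 and 354 CPM from no read, and the homeobox gene Rhox5 at 302, 272 and 292 CPM, at least 3632-fold higher. Pdpn, the membrane protein podoplanin, was at 262, 291 and 276 CPM, at least 3583-fold higher. Thbs1, thrombospondin 1, went from 0.438, 0.145 and 0.917 CPM to 4451, 1817 and 3786 CPM (log2 change 12.76 ± 0.65, adjusted p = 4.53e-06).

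Among the largest falls, 11 of 12 were B-cell or immunoglobulin genes. The joining segment Iglj2 fell by 8.63 on the log2 scale and Iglj3 changed by -8.68. The other was Chst3, a sulfotransferase gene, from 285, 280 and 261 CPM to 0, 0.599 and 0.233 CPM (log2 change -9.63).

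The highest mean RPKM values included very short genes inside longer ones, such as Gm27597 within Rpl19 and Gm25745 within Hsp90b1, whose reads cannot be told apart from those of the host. Ptma, prothymosin alpha, stood at 3600 RPKM in spleen and 2705 RPKM in tumor and was not called (adjusted p = 0.187), but was called lower with library totals alone (adjusted p = 0.0328). In tumor Apoe, H2-Ab1 and Arg1 stood among the 8 highest, at 5084, 4765 and 4387 RPKM.

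Whether the tumor-spleen difference was the same in the cKO libraries was tested as an interaction over all 12 libraries. Of 16831 genes, 3072 (18.3%) were called, 1293 with a positive difference (7.68%) and 1779 with a negative one (10.6%), where the difference is the log2 tumor-minus-spleen change in cKO minus that in WT. The sign says in which direction the change shifted, not whether it was larger or smaller. Scaled by library totals, 1891 were positive and 1369 negative, so the split depends on the scaling. Of 22 NK identity genes, 8 had a negative difference and 1 a positive one. Of 19 macrophage markers, 13 had a negative difference and none a positive one, and of 30 cell cycle genes, 15 had a positive difference and none a negative one. Chil3 was at 786 ± 901 CPM (SD, n = 3) in tumor WT and 6.9 ± 3.54 CPM in tumor cKO.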

How the data were processed

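Total RNA of samples labelled as NK cells from tumor and spleen was sequenced, 3 libraries per tissue and genotype. The reads were mapped with TopHat2 2.0.6 and the build mm10 was used, per the submitters' processing notes; for the counting program and its strand setting, the sources used here give no name. The deposited count table holds whole reads per gene for 33100 genes, and between 68.8% and 73.3% of counts from 1 to 49 were even. The deposited RPKM values could be computed back from the counts for 100% of values, within a relative tolerance of 2e-04.

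Counts of the 6 WT libraries were fitted with edgeR 4.0.16 in R 4.3.3: filterByExpr (about 0.632 CPM), TMM composition factors, robust quasi-likelihood fit with 4 residual degrees of freedom, two-sided F-test, and glmTreat against a 2-fold change. P-values were adjusted over all genes tested. CPM values use the TMM factors, and log2 changes use edgeR's small prior count. The values after ±, unless named SD, are approximate standard errors of log2 changes. Each is the size of the log2 change divided by the square root of its F statistic, so it is rough where a group is near 0. Genes without reads in a group got a lower bound from 3 reads over that group (0.0782 CPM in spleen), since their fitted change is no bound. The genotype difference used all 12 libraries. The fits were run on simulated counts with known, balanced changes in far fewer genes than were called here. That check therefore does not bear on the scaling.

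Named genes were the 12 largest rises and 12 largest falls (called beyond 2-fold, mean log2 CPM of at least 2, groups not overlapping, no predicted gene or pseudogene), the 8 highest by RPKM in each tissue, and from each of 37 gene lists the first 3 members and the 3 called members with the largest change. Further genes were named after their values were seen. The comparison and the lists were chosen with earlier results of these data known. Of 608 list entries, 3 had no row. Lists can share members, such as Arg1, C1qa and Slc2a1, so their counts are not independent. Of several promoter windows, the choice of the nearest to the gene's 5′ end was made after seeing them. Replicate numbers were shared by the tissues, but the labels do not pair them, so they were not taken as pairs. Deviations from group means correlated at 0.0187, 0.0118 and 0.00804 for equal numbers. Such values cannot exclude that equal numbers came from the same mouse. Alternatives were DESeq2 1.42.0, library totals alone, no filter, limma 3.58.1 on log2(RPKM + 0.5) and log2(RPKM + 0.1), a replicate block, all 12 libraries, and each library left out.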

Additional observations from a re-analysis of the deposited data

Results flagged for a closer look

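The difference between tumor and spleen itself differed between genotypes for 3072 genes (edgeR interaction test, adjusted p under 0.05). The values below are log2 differences, the cKO change minus the WT change. Amy1, an amylase gene whose exons overlap Rnpc3, differed by 5.16: it averaged 3.3 CPM in spleen WT, 1.15 in tumor WT, 3.98 in spleen cKO and 46.5 in tumor cKO. H2-Q2, an MHC class I gene, differed by 3.44, Tnnt1, a troponin gene, by 3.19, and Atp6v1g3, a proton-pump subunit gene, by 3.01, each with a larger rise in cKO. In the other direction Ighv4-1 differed by -14.84, Chil3 by -13.90, Slc7a2 by -11.15 and F10 by -7.98. Ighv4-1 averaged 2203 ± 3720 CPM (SD, n = 3) in tumor WT, where 1 library carried it. Chil3, Slc7a2 and F10 had no read in spleen WT, so these fitted values are no measure of size. All 4 calls were lost when some single libraries were left out: Ighv4-1 without spleen WT replicate 1 (adjusted p = 0.0597), Chil3 without spleen cKO replicate 1 (0.163), Slc7a2 without spleen WT replicate 1 (0.0698) and F10 without tumor WT replicate 2 (0.105).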

How the results depend on the processing

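Of genes called, 9265 in all, none was called in the opposite direction under any of the 13 alternatives. Changes of sign among genes that lost their call were not counted. The number called ranged from 8146 (without spleen WT replicate 2) to 10437 (fit on all 12 libraries), and was 10163 without tumor WT replicate 2. DESeq2 called 9582, library totals alone 9299, no filter 9929, and limma on RPKM 9530. Calls beyond 2-fold ranged from 4179 to 5307, and calls of the genotype difference from 2141 to 4179. The replicate block gave 8724 calls, 4446 beyond 2-fold and 2792 for the genotype difference. The labels give equal numbers no shared origin, and correlations under 0.1 cannot exclude one. A call lost under the block is therefore neither read as a weaker effect nor dismissed. Of 206 named genes, 36 changed their call under at least 1 alternative. With no filter on low counts, Chil3, Slc7a2, Ccl8, Retnla, Col1a1 and Col1a2 were not called (adjusted p from 0.0513 to 0.0812), nor were Cdh5, Ccl3, Klra7, Fabp4 and Pdgfrb (0.0603 to 0.11). Without tumor WT replicate 2 the median log2 change of endothelial genes went from 5.32 to 4.54 and of complement genes from 6.58 to 5.70; without tumor WT replicate 3 the median of Immunoglobulin constant genes went from -1.19 to -3.07 in the tumor against spleen difference. The 3 libraries per tissue limit the precision, and levels under about 0.632 CPM were not tested.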
